A study of Mus musculus with 23 samples.

Results

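The change in gene expression between 6 weeks and 3 months of age was measured in striatum of mice labelled as mutant for the histone methyltransferases Ezh1 and Ezh2. The comparison rests on 6 of the 23 arrays of the study, 3 from mice labelled as mutant, called dKO (double knockout) here, at 6 weeks and 3 at 3 months. It covers every probe set that carries a single gene symbol, 38143 of the 45101 on the array, which stand for 20694 genes. The labels give the dKO genotype as Ezh1; Ezh2 Camk Cre. They do not spell out the alleles or the Cre line, and they do not say which cells recombined. Cre lines driven by Camk2a promoters act mainly in forebrain excitatory and striatal projection neurons after birth. Glia, vessels and many interneurons of such tissue thus keep alleles that only Cre would delete. Whether Ezh1, Ezh2 or both depend on Cre here is not stated. The same age step was read in 3 wild-type (WT) mice at 6 weeks and 4 at 3 months, and the 6 dKO and 4 WT arrays at 6 months are used for values set beside it and for the estimate of spread. The design text describes the controls as littermates matched for age and sex, and the replicates as biological.

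Ezh1 and Ezh2 are enzymes that take each other's place in Polycomb repressive complex 2 (PRC2), where they methylate lysine 27 of histone H3. In neurons the mark lies over CpG-rich promoters of developmental regulators that belong to other tissues or other stages, among them the Hox, Irx, Pou4f, Twist and Wt1 genes, and keeps them silent. Most striatal neurons are medium spiny projection neurons. The myelinating oligodendrocytes around them are still maturing in young adult mice.

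Values are log2 intensities that the authors centred on a value near the median of each probe set. A value of 0 is therefore near the middle of the arrays and not an absence of signal. Only differences between arrays carry information, and levels cannot be compared between genes. A probe set was called when its limma adjusted p (Benjamini-Hochberg over all 38143, two-sided) was under 0.05.

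The targeted genes were read first. Of the 4 Ezh1 probe sets, the one with the widest spread gave -0.37, -0.62 and 1.47 in the 6-week dKO arrays and -0.46, -0.09 and -0.76 in the 3-month dKO arrays. The WT arrays ran from 2.07 to 2.28 at 6 weeks and from 1.39 to 1.72 at 3 months. On this probe set the third 6-week array labelled dKO lay apart from the other 5 dKO arrays. It was within the 3-month WT range but below every WT array of its own age. On the other 3 it read 0.13, 0.62 and 0.89, again above the other 5. The lowest 6-week WT arrays there read 0.89, 1.01 and 1.62, so it was below the WT arrays of its age on these too. The value of 0.13 was also below the 3-month WT arrays, the lowest of which read 0.475. No Ezh1 probe set was called between the dKO ages, with adjusted p from 0.386 to 0.955, and the differences ran from -0.60 to -0.07. Without that array, 3 of the 4 turned positive, at 0.06, 0.06 and 0.42. The single Ezh2 probe set gave 0.91, -0.11 and 0.81 at 6 weeks and -0.22, 0 and -0.24 at 3 months in dKO, and its difference of -0.69 (SE 0.20) did not pass (adjusted p = 0.0692). The WT arrays gave 0.95, 1.09 and 0.75 at 6 weeks and 0.10 to 0.46 at 3 months, a fall by 0.64 (adjusted p = 0.0336). The first and the third 6-week dKO arrays thus lay within the WT range of that age for Ezh2. Without the second 6-week dKO array it passed, at -1.01 (adjusted p = 0.00114). Whether these probe sets lie inside the deleted parts is not known from the sources used here.

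Other features of the libraries move with age or vary among the arrays. On their most changed probe sets Gh and Prl, hormones of the pituitary, were between 1.40 and 8.13 in all 7 arrays at 3 months and between -0.59 and -0.09 in all 6 arrays at 6 weeks. At 6 months Gh was 3.01 and Prl 3.385 in the fourth WT array. In the other 6-month arrays Gh ran from -0.505 to 0.353 and Prl from -0.671 to 1.075. Of 12 pituitary genes measured, a list chosen after values were seen, Gh and Prl were called in dKO. Of all genes 1.72% were called higher. Prl did not pass when any 1 of the 6-week dKO arrays or the first 3-month dKO array was left out. Medians of marker lists for neighbouring tissue also differed among dKO arrays. The cortical list had medians of -0.40, 1.02 and 0.53 at 6 weeks and 0.75, -0.06 and 0.71 at 3 months. The choroid plexus list ranged from -0.32 to 0.74 at 6 weeks and from -0.18 to -0.06 at 3 months. Xist, expressed from the inactive X chromosome, was high in 1 of 3 dKO arrays at 6 weeks and in 2 of 3 at 3 months. In WT it was high in 0 of 3 arrays at 6 weeks and in 2 of 4 at 3 months. At 6 weeks the genotypes thus differed in Xist, although the design text describes the controls as matched for sex. The 3′ minus 5′ difference of the Gapdh control probe sets, a sign of RNA integrity on the same centred log2 scale, was -0.15, -0.08 and -0.05 in dKO at 6 weeks and 0.15, -0.01 and 0.07 at 3 months. In WT it was -0.16 to -0.10 at 6 weeks and -0.07 to -0.002 at 3 months, so within each genotype every 3-month array was above every 6-week array. The same difference for the actin control probe sets overlapped between the ages. In dKO it was -0.176, 0.03 and -0.029 at 6 weeks and 0.108, -0.075 and 0.038 at 3 months. In WT it was -0.188 to -0.086 at 6 weeks and -0.188 to -0.077 at 3 months. The part of these differences in the results was not tested. The labels give no hybridisation or scan date, so age and a batch that coincided with age cannot be told apart.

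**Figure D1:**
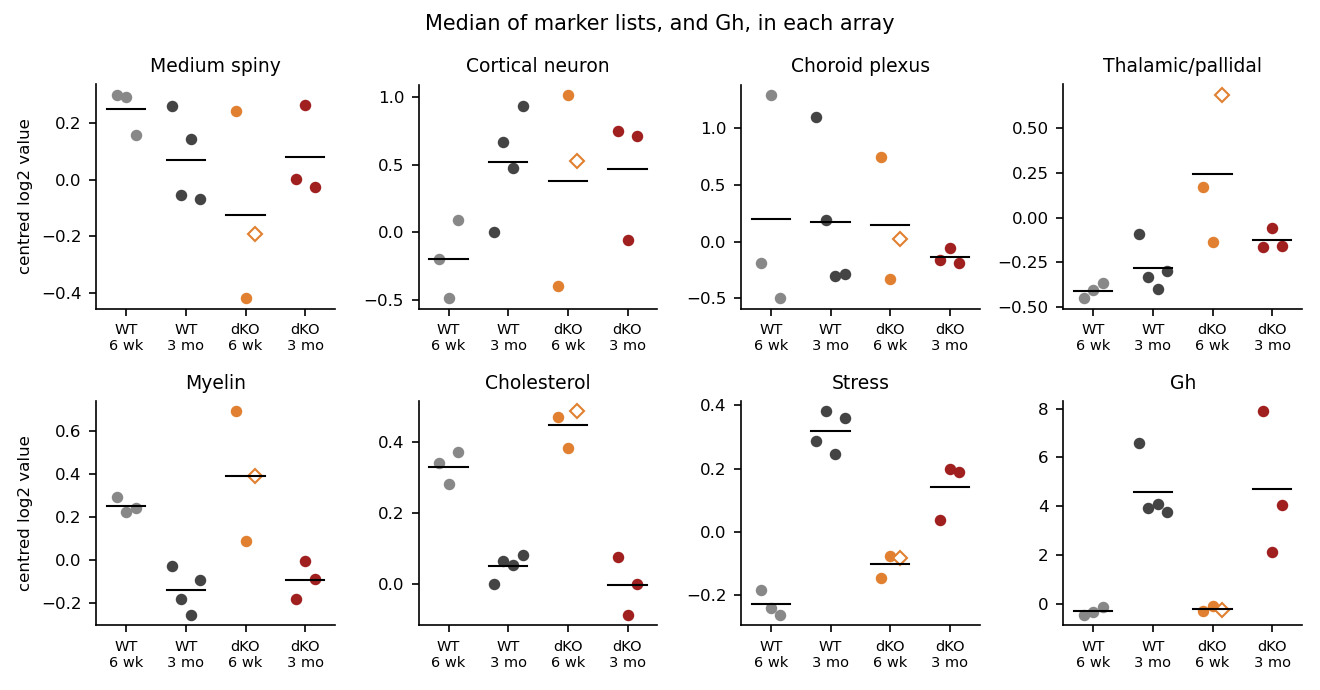
Median over the probe sets of 7 gene lists, and the Gh probe set with the largest change, in each array (centred log2 value, vertical axis) for WT and dKO at 6 weeks and 3 months. Circles are arrays, bars are group means, and the open diamond is the third 6-week dKO array. Gh is at least 2.14 in every 3-month array and below 0 in every 6-week array, while the cortical and choroid plexus medians spread within groups.

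Between 6 weeks and 3 months 410 probe sets rose in dKO striatum and 468 fell, which is 1.07% and 1.23% of those tested and 2.3% together. The rises belong to 356 genes and the falls to 373. The largest rises were in Prl, Gh, the developmental transcription factors Pou4f2, Skor1, Irx5, Twist1, Wt1, Hoxc8 and Nkx6-1, the lipid-droplet protein Plin4, and the enzymes Xdh, Fmo2 and Ptgds. The largest falls were in the apelin receptor Aplnr, the oligodendrocyte enzyme Enpp6, the actin-severing protein Gsn and the imprinted gene Mkrn3. At least 2-fold changes were found at 46 of the higher and 57 of the lower probe sets. The count depends on single arrays. It was 140 higher and 205 lower without the third 6-week dKO array, 126 and 163 without the first 3-month dKO array, 134 and 175 without the second 3-month dKO array, and 246 and 188 without the first 6-week dKO array. Without the second 6-week dKO array 228 were higher. Of the calls, 131 higher and 196 lower were made again without the third 6-week dKO array, where 0.609% of genes were called higher and 0.797% lower.

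Most of this age change was shared with WT mice. In WT striatum 1510 probe sets rose (3.96%) and 1667 fell (4.37%), from 3 against 4 arrays that are not used in the dKO difference. Both genotypes called 208 probe sets higher, 50.73% of the dKO rises and 13.77% of the WT rises. Both called 334 lower, 71.37% of the dKO falls and 20.04% of the WT falls. No probe set called in one direction in dKO was called in the other in WT. Of the dKO falls, 98.93% had a negative difference in WT, with a median difference of -0.62 in dKO and -0.52 in WT. Of the dKO rises, 92.93% had a positive difference in WT, with medians of 0.55 and 0.35. Across all probe sets, which are not independent of one another, the differences in the 2 genotypes had a Pearson r of 0.5974.

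**Figure D2:**
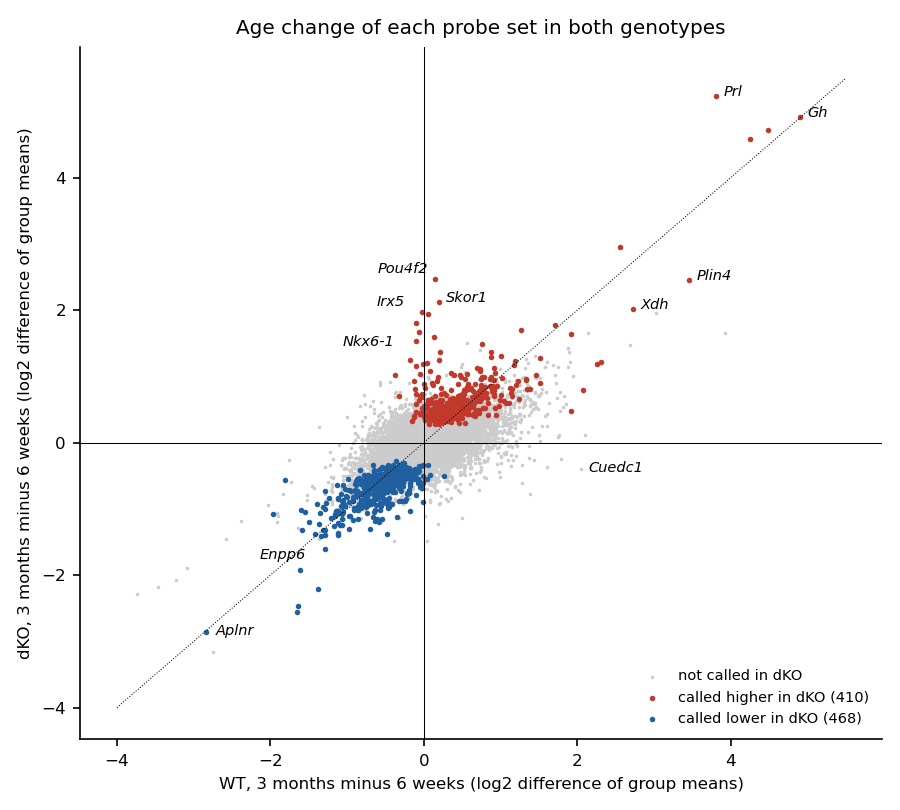
Difference between 3 months and 6 weeks in WT (horizontal axis) and in dKO (vertical axis), log2 difference of group means, 1 point per probe set. Red points were called higher in dKO (410), blue points lower (468), and the dotted line marks equal change. Most coloured points follow the line, while Pou4f2, Skor1, Irx5 and Nkx6-1 rise in dKO at WT differences near 0.

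A set of developmental transcription factors rose in dKO at WT differences near 0, although the difference between genotypes passed its own test for Irx5 alone. A list of non-Hox developmental regulators and a Hox list were chosen with earlier results of these data known. Their counts are therefore not an independent test. Of 97 measured genes on the non-Hox list, 15 rose in dKO and none fell, against 1.72% and 1.8% of all genes. In WT 2 rose, Foxd1 and Nkx2-1, and Prrx1 fell, against 5.75% and 6.74% of all genes. Only Foxd1 was called in both. The median difference over the 168 probe sets of the list was 0.106 in dKO and -0.00253 in WT, beside 0.00448 and -0.004 over all probe sets. The 15 genes included Pou4f1, Pou4f2, Skor1, Nkx6-1, Irx5, Gata2, Tbx2, Tbx3, Twist1, Wt1, Pax1, Foxd1, Six6 and Barx1. Without the third 6-week dKO array 12 were called, with Tbx2 and Pax1 among those no longer passing, and 11 were called without the first 3-month dKO array. Of 35 Hox genes measured, Hoxc8 and Hoxd8 rose and Hoxd1 fell in dKO, and none was called in WT. Hoxd1 did not pass without the first 6-week array (-0.54, adjusted p = 0.122), the first 3-month array (adjusted p = 0.094) or the second 3-month array (adjusted p = 0.135) of dKO. Among these 18 genes, called on either list, Irx5 was the one with a called difference between genotypes.

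Irx5, an Iroquois homeobox gene that patterns heart, limb and retina, gave 0.06, -0.67 and 0.13 in dKO at 6 weeks and 2.29, 1.79 and 1.36 at 3 months. The groups did not overlap. The rise was 3.92-fold (log2 1.97, SE 0.22, adjusted p = 3.21e-05). In WT the arrays ran from -0.90 to -0.64 at 6 weeks and from -1.20 to -0.46 at 3 months, overlapping (log2 -0.02, adjusted p = 0.978). The difference between the 2 age changes was 1.99 (SE 0.30, adjusted p = 0.012), and without the first 3-month dKO array it was 1.75 and no longer passed (adjusted p = 0.0564). Of the other Iroquois genes, Irx3 had a difference of 0.62 (adjusted p = 0.142) and Irx2 one of 0.52 (adjusted p = 0.22) in dKO. Irx1, Irx4 and Irx6 had differences between -0.21 and 0.01, so no second member of the family was called.

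Nkx6-1, a homeobox factor of the ventral neural tube and of pancreatic beta cells, was flat at 6 weeks, with -0.15, -0.16 and -0.17 in dKO. At 3 months it read 1.46, 1.60 and 1.07, all above every 6-week array. The rise was 2.90-fold (log2 1.54, SE 0.21, adjusted p = 0.000232) in dKO, and WT differed by -0.10 (adjusted p = 0.843). The difference between genotypes missed the threshold, at adjusted p = 0.0503, as did that of Barx1, a homeobox gene of stomach and tooth mesenchyme, at the same value. Barx1 gave -0.51, 0.01 and -0.42 at 6 weeks and 1.45, 0.72 and 0.65 at 3 months, a rise of 1.25 (adjusted p = 0.000542).

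Pou4f2, a POU-domain factor of retinal ganglion cells, showed the largest rise of the list. It gave 1.33, 0.42 and -0.59 in dKO at 6 weeks and 3.03, 3.08 and 2.44 at 3 months. All 3-month arrays lay above all 6-week arrays, and the third 6-week array was the lowest of its group, yet above the WT arrays of that age, which ran from -1.03 to -0.98. The rise was 5.52-fold (log2 2.46, SE 0.30, adjusted p = 0.000108). The WT difference was 0.15 (adjusted p = 0.839), and the difference between genotypes had an adjusted p of 0.0605. Its relative Pou4f1, known from sensory neurons and the habenula, rose on both of its called probe sets, by 1.16 and 1.04. Skor1, a corepressor of dorsal spinal interneurons, gave -0.35, -0.59 and -0.66 at 6 weeks and 2.80, 0.88 and 1.09 at 3 months. The first 3-month array stood well above the other two, and the rise was 4.36-fold (log2 2.12, SE 0.34, adjusted p = 0.00117).

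Twist1, a basic helix-loop-helix factor of mesenchyme, was already raised in part of the 6-week group. It gave 1.42, 2.02 and -0.21 at 6 weeks and 3.04, 2.72 and 2.91 at 3 months, against -0.51 to -0.30 in WT at 6 weeks. The third 6-week dKO array was close to the WT range, and the rise of 1.81 (SE 0.35, adjusted p = 0.00644) became 1.17 (adjusted p = 0.0211) without it. Hoxc8, which specifies thoracic segments, gave 0.56, 0.15 and -0.77 at 6 weeks and 1.65, 1.70 and 1.40 at 3 months. Here too the third 6-week array was the lowest, just under the WT arrays of that age at -0.74 to -0.51, and the rise was 1.60 (SE 0.23, adjusted p = 0.000519). Hoxd8 rose by 0.93 (adjusted p = 0.0341), but by 0.54 without the third 6-week array, where it did not pass (adjusted p = 0.191). Nor did it pass without the first (0.74, adjusted p = 0.206) or the second 3-month dKO array (0.94, adjusted p = 0.108).

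Wt1, a zinc-finger factor of kidney and gonad development, gave 0.27, -0.02 and -0.68 at 6 weeks and 1.61, 1.42 and 1.54 at 3 months, with no overlap. The rise was 3.17-fold (log2 1.66, SE 0.24, adjusted p = 0.00052), and the difference from WT had an adjusted p of 0.0936. The smaller rises of the list ran from 0.50 for Pax1, a factor of the vertebral column, through 0.71 for Gata2 and 0.75 for Tbx3, to 0.99 for Six6 and 1.03 for Foxd1.

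Taking 1 probe set for each of the 17 called rises on both lists, all 3-month dKO arrays lay above all 6-week dKO arrays at 17. Such a separation was found at 10.6% of all probe sets, and the reverse one at 9.8%, and the call itself favours it. At 17 the 3-month dKO arrays also lay above all 7 WT arrays of both ages. The third 6-week dKO array was the lowest of its group at 13 of the 17, and at 10 of them it did not exceed the highest 6-week WT array, as was the case at 4 for each of the first and the second 6-week array. The WT age difference was within 0.3 of 0 at 16 of the 17, Foxd1 being the exception at 0.56. In the 6 dKO arrays at 6 months the mean was above that at 3 months at 17. Apart from the separation of the dKO ages, the shares of all probe sets with these patterns were not counted. The 17 were also picked for their rise in dKO, so these counts describe them and test nothing. The 6-month means (SD, n = 6) were 4.96 ± 0.25 for Hoxc8, 4.20 ± 0.31 for Skor1 and 4.07 ± 0.39 for Twist1. They were 3.99 ± 0.17 for Pou4f2, 3.37 ± 0.38 for Wt1, 2.67 ± 0.23 for Irx5 and 2.61 ± 0.31 for Nkx6-1.

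**Figure D3:**
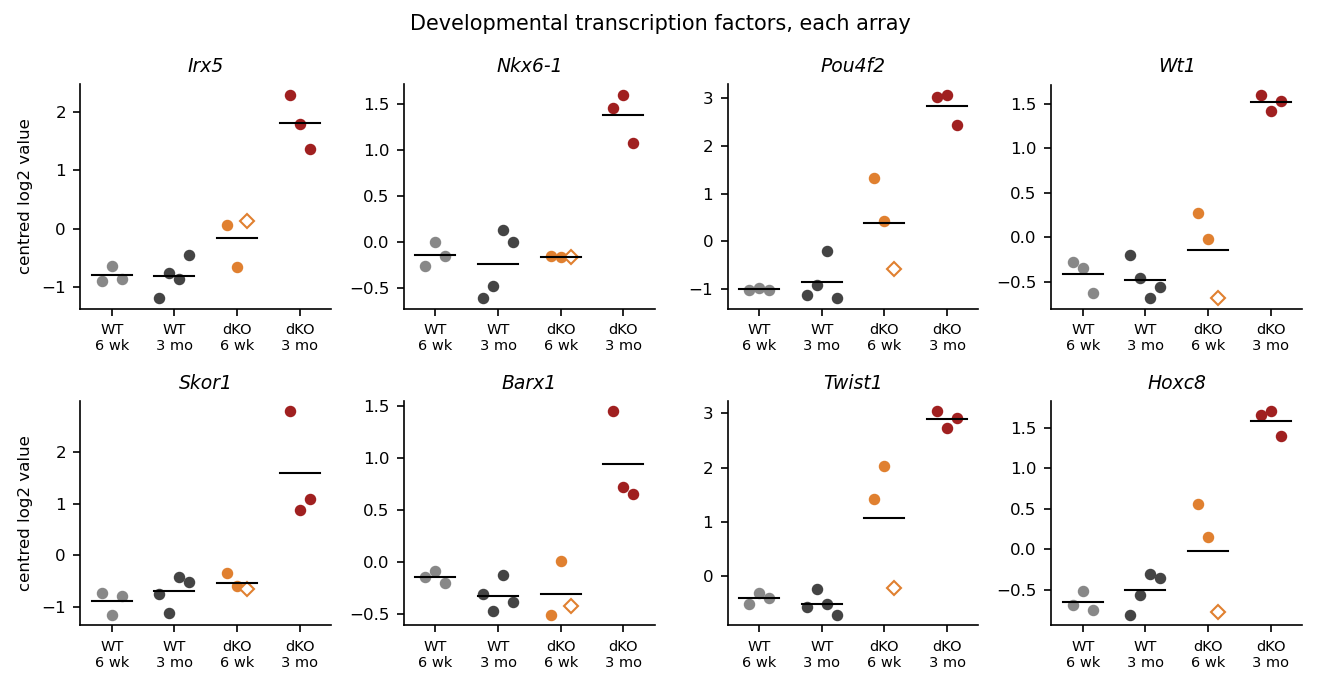
Values of 8 developmental transcription factors in each array (centred log2 value, vertical axis, own scale in each panel) for WT and dKO at 6 weeks and 3 months. Circles are arrays, bars are group means, and the open diamond is the third 6-week dKO array. In each panel the 3 dKO arrays at 3 months lie above the other 10 arrays, and the diamond lies at or near the WT values for Twist1, Wt1 and Hoxc8.

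The promoters of 4 of these factors are shown because CpG-rich promoters are the known substrate of Polycomb repression. Each is the 250 bases before the annotated start, from RefSeq on build GRCm38.p6, written 5′ to 3′ on the strand of the gene with every CG in capitals. They lie at chr8:78436648-78436897 (minus strand) for Pou4f2, chr9:63148962-63149211 (minus strand, the first of 3 starts) for Skor1, chr5:101664712-101664961 (minus strand) for Nkx6-1 and chr12:33957421-33957670 (plus strand) for Twist1.
Pou4f2: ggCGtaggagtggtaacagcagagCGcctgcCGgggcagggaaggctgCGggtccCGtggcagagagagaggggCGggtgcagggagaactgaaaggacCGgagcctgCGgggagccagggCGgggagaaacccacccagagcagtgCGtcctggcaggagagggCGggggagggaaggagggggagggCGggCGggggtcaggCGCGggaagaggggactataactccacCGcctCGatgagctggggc
Skor1: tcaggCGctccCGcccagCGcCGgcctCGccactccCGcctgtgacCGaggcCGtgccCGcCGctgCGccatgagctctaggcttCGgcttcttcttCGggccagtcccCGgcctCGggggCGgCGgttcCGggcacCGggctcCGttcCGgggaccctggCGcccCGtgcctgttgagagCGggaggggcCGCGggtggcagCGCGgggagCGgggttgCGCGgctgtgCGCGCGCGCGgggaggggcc
Nkx6-1: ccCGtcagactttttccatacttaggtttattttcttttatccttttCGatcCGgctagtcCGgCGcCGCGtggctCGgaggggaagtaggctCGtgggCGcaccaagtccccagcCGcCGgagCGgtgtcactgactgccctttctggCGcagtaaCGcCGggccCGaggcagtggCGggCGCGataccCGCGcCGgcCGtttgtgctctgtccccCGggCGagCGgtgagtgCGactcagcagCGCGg
Twist1: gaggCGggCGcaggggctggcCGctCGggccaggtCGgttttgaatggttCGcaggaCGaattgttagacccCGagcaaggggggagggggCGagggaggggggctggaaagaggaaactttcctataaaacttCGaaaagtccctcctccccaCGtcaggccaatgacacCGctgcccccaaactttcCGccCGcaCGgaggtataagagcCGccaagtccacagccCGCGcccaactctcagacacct

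The Skor1 window held 36 CG at 78.8% G and C, Nkx6-1 held 30 at 65.2%, Twist1 held 18 at 62.4% and Pou4f2 held 17 at 70.8%. The motif CG reads the same on both strands. Over the 32851 promoter entries of the same length in the table, 92.1% held at least 1 CG, the median was 6, and 37.8% held 10 or more. Of the 724 genes called in dKO 74.2% had an entry, too few for a comparison of CG content between gene sets, so that check is void and only single promoters are described.

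Of 12 PRC2 subunits and partners, 1 rose in dKO and none fell, against 1.72% and 1.8% of all genes, and in WT Ezh1, Ezh2 and Jarid2 fell, against 6.74%. Phf1, an accessory subunit that binds methylated H3, was the one that rose in dKO, by 0.44 (SE 0.10, adjusted p = 0.027), from -0.35, -0.60 and -0.54 to 0, -0.01 and -0.17. It was not called without the second or the third 6-week array or without the first or second 3-month array of dKO, with adjusted p from 0.0961 to 0.12. The median over the 36 probe sets of the list was -0.03 in dKO. None of 7 cyclin-dependent kinase inhibitors was called. Cdkn2a, the inhibitor locus that Polycomb represses in dividing cells, gave 0.96, 0.46 and -1.38 at 6 weeks and 1.02, 1.30 and 1.14 at 3 months in dKO. The 3-month arrays lay above all 6-week arrays, but the third 6-week array was close to the WT range of -1.91 to -1.47, and the difference of 1.14 (SE 0.35) did not pass (adjusted p = 0.0927). Without that 6-week array the Cdkn2a difference was 0.44 (adjusted p = 0.41). The median of Cdkn2a was 2.69 in dKO at 6 months.

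The test of whether the age change differed between genotypes called 2 probe sets higher and 2 lower (0.00524% each), while 2136 (5.6%) had an unadjusted p under 0.05. Besides Irx5 these were Zfp932, a zinc-finger gene, at 1.24 (adjusted p = 0.00679), Wdfy1, an endosomal adaptor, at -1.45 (adjusted p = 2.06e-07), and Cuedc1 at -2.44 (adjusted p = 0.000496). At these last genes it was the 6-week WT group that stood apart. Zfp932 fell in WT from a mean of 1.93 to 0.11, and in dKO from 0.51 to -0.06. Wdfy1 rose in WT from -1.78 to 0.14, and in dKO from -0.37 to 0.11. Cuedc1 rose in WT from -2.25 to -0.19, while dKO gave 0.74, 0.66 and -0.04 at 6 weeks and -0.17, 0.53 and -0.17 at 3 months (adjusted p = 0.43). Irx5 was thus the only called gene whose difference between genotypes came with a larger change in dKO.

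The other large rises were shared with WT. Plin4, a perilipin that coats lipid droplets, gave -2.29, -2.48 and -2.07 at 6 weeks and 0.51, 0 and 0 at 3 months in dKO. It rose 5.47-fold in dKO (log2 2.45, SE 0.37, adjusted p = 0.000733) and 11-fold in WT (log2 3.46, adjusted p = 4.33e-06). Xdh, the xanthine dehydrogenase of purine breakdown, gave -1.59, -2.17 and -1.39 at 6 weeks and 0.40, 0.60 and -0.08 at 3 months. It rose 4.07-fold in dKO (adjusted p = 2.11e-05) and 6.61-fold in WT, with no overlap of ages in either genotype. Fmo2, a flavin monooxygenase, rose by 1.77 in dKO and 1.72 in WT, and Ptgds, which makes prostaglandin D and is abundant in leptomeninges and oligodendrocytes, by 1.70 and 1.26. Ccny, a membrane-associated cyclin, rose by 1.49 in dKO (SE 0.18, adjusted p = 0.000108) and by 0.75 in WT, but its 5 other probe sets differed by -0.09 to 0.27 and none of them was called. The 6-month dKO medians of Xdh and Fmo2 were -0.36 and -0.08, below each of their 3-month arrays.

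Some stress and heat shock genes rose with age in both genotypes. Of 14 measured, Hspb1, Fkbp5 and Zbtb16 rose in dKO and none fell, against 1.72% and 1.8% of all genes, and 9 rose in WT, these 3 among them, against 5.75%. The median over their probe sets was 0.23 in dKO and 0.44 in WT. Fkbp5, a cochaperone of the glucocorticoid receptor, gave -0.17, -0.51 and -0.60 at 6 weeks and 0.51, 0.59 and 0.19 at 3 months. The rise was 0.86 (SE 0.20, adjusted p = 0.0212) in dKO, beside 0.86 in WT. Zbtb16, another glucocorticoid-induced gene, gave -1.53, -0.19 and -0.60 at 6 weeks and 0.74, 0.43 and 0.17 at 3 months, rising by 1.22 in dKO and 2.31 in WT. The dKO count rests on single arrays, being 0 without the second 3-month array, 1 without the third 6-week array, and 2 or 3 without each of the others. Of 15 clock genes only Per2, a repressor of the circadian clock, was called in dKO, against 1.72% of all genes called higher. In WT Hlf, Nr1d2, Per2, Per3 and Tef rose and Clock fell, against 5.75% and 6.74%. The median over the probe sets of the list was 0.19 in dKO and 0.20 in WT. Its dKO array medians ran from -0.036 to 0.048 at 6 weeks and from 0.103 to 0.195 at 3 months. Per2 gave 0.37, -0.18 and 0.15 at 6 weeks and 0.94, 1.27 and 1.01 at 3 months in dKO (log2 0.96, adjusted p = 0.00277). Per2 rose by 0.53 in WT, and its 6-month dKO median was -0.45. The time of day of dissection is not given in the sources used here.

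Aplnr, the receptor of the vascular peptide apelin, fell the furthest of the named genes. It gave 3.26, 3.44 and 3.07 in dKO at 6 weeks and 0.15, 0.55 and 0.51 at 3 months. The groups were far apart, a 7.24-fold fall (log2 -2.86, SE 0.18, adjusted p = 1.02e-08). WT fell 7.14-fold, and the difference between genotypes was -0.02 (adjusted p = 1). A further Aplnr probe set differed by -0.24 in dKO and was not called. Cd93, a receptor of endothelial cells, fell by 1.31 in dKO and 1.32 in WT on one probe set and by 1.06 and 1.10 on another, while its 3 other probe sets, between -0.29 and 0.15 in dKO, were not called. On a list of 19 endothelial and mural markers, none was called in dKO, with a median of 0.03, and Kdr, the receptor of vascular endothelial growth factor, was nearest at -0.59 (adjusted p = 0.0634). Of 21 collagen and basement membrane genes, a list chosen after values were seen, Col4a1, Col4a2 and Sparc fell in dKO and also in WT, where 6 fell and 2 rose, against 1.8% of all genes called lower in dKO and 6.74% in WT. The list median was -0.10 in dKO and -0.12 in WT. Col4a1, the main chain of the vascular basement membrane, gave 1.35, 1.005 and 1.10 at 6 weeks and -0.01, 0.08 and -0.05 at 3 months, a fall by 1.15 (SE 0.15, adjusted p = 0.000232).

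Several oligodendrocyte genes fell in both genotypes. Of 17 myelin and oligodendrocyte genes, 6 fell in dKO, among them Mbp, Mobp, Mal, Cnp and Ugt8a, and none rose, against 1.8% of all genes called lower. In WT 11 fell, of which Cnp, Mal, Mobp and Ugt8a were called in both, 66.7% of the dKO falls and 36.4% of the WT falls, against 6.74% of all genes called lower in WT. The median difference over the 39 probe sets was -0.45 in dKO and -0.39 in WT. The dKO count was 1 without the first, 9 without the second and 2 without the third 6-week array. It was 2 without the first, 3 without the second and 7 without the third 3-month array. The first 6-week dKO array had the highest median of the list, at 0.69, against 0.09 and 0.39 in the others and -0.18 to -0.01 at 3 months. In whole tissue, fewer cells of a type and less RNA per cell cannot be told apart.

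Mal, a raft protein of compact myelin, gave 1.03, 0.40 and 0.71 at 6 weeks and -0.03, 0.04 and -0.12 at 3 months in dKO, and fell by 0.75 (SE 0.15, adjusted p = 0.00783). Mobp, a structural myelin protein, gave 1.26, 0.36 and 0.86 at 6 weeks and -0.17, 0.07 and -0.16 at 3 months, and fell by 0.91 (adjusted p = 0.0279). Both groups were separate, though the second 6-week array lay nearest to the 3-month arrays for each gene. Mal was called in WT on the same probe set, at -0.64, and Mobp was not, at -0.46 (adjusted p = 0.189), although another of its probe sets fell in both. Mal did not pass on this probe set without the first 6-week array (-0.59, adjusted p = 0.0563), and Mobp passed here only in the full set and without the second 6-week array.

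Some genes of cells on the way to becoming oligodendrocytes fell as well. Of 6 measured precursor genes, Enpp6, Gpr17 and Bmp4 fell in dKO, and Enpp6 and Gpr17 fell in WT, against 1.8% and 6.74% of all genes. The median over the 17 probe sets of the list was -0.13 in dKO and -0.05 in WT. Enpp6, a choline phosphodiesterase that marks newly forming oligodendrocytes, gave 2.02, 1.14 and 1.45 at 6 weeks and 0, 0.02 and -0.20 at 3 months. It fell 3.03-fold (log2 -1.60, SE 0.16, adjusted p = 9.7e-06) in dKO and 2.44-fold (log2 -1.29) in WT. Gpr17, a receptor of differentiating precursors, gave 1.90, 1.505 and 1.54 at 6 weeks and 0.48, 0.78 and 0.48 at 3 months, a fall by 1.07 (SE 0.15, adjusted p = 0.000358). Bmp4, a ligand made by these cells, fell by 0.89 (adjusted p = 0.0204) but was not called without the first 6-week array (-0.70, adjusted p = 0.116), without the first 3-month array (adjusted p = 0.0753) or without the third 3-month array (adjusted p = 0.0656). Among the 15 largest falls, Gsn, Slc45a3, a sugar transporter of oligodendrocytes, and Elovl7, a fatty acid elongase, fell by 1.41, 1.39 and 1.31 in dKO and by 1.34, 1.28 and 1.28 in WT. Elovl7 was not called without the first 6-week array (adjusted p = 0.0734), the first 3-month array (adjusted p = 0.0573) or the second 3-month array (adjusted p = 0.0741).

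Many genes of cholesterol synthesis fell in both genotypes. On a list of 21 synthesis genes, chosen after values were seen, 13 fell in dKO and none rose, against 1.8% of all genes called lower, with a median over the 49 probe sets of -0.46. In WT 12 fell, against 6.74%, with a median of -0.24. Of the 13, 10 were called in both genotypes, 76.9% of the dKO falls and 83.3% of the WT falls. They included Hmgcs1, Idi1, Mvd, Fdps, Sqle, Lss, Cyp51, Sc5d and Dhcr7, which run from the start of the mevalonate pathway to its last steps. Tm7sf2 and Nsdhl were among those called in dKO alone, while Msmo1 was among those called in WT alone, and the difference between genotypes passed for none of the 13. Leaving out single dKO arrays gave counts from 10 to 12. Cyp51, the lanosterol demethylase, gave 1.10, 1.07 and 0.99 at 6 weeks and -0.63, -0.16 and 0.02 at 3 months, a 2.48-fold fall (log2 -1.31, SE 0.17, adjusted p = 0.00018). Hmgcs1, the synthase at the entry to the pathway, gave 1.04, 0.99 and 0.97 at 6 weeks and -0.01, -0.09 and 0.28 at 3 months, a fall by 0.94 (SE 0.14, adjusted p = 0.000834). In WT the 2 genes fell by 0.97 and 0.57.

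**Figure D4:**
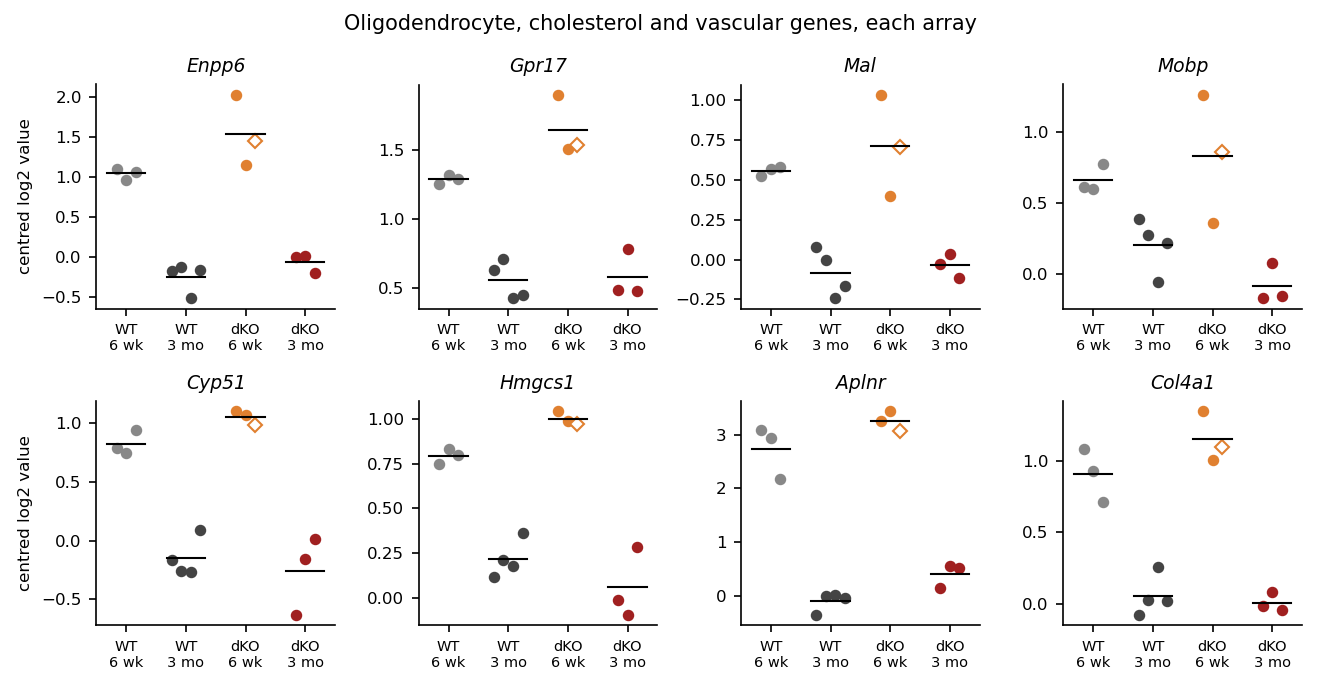
Values of 8 genes that fell with age in each array (centred log2 value, vertical axis, own scale in each panel) for WT and dKO at 6 weeks and 3 months. Circles are arrays, bars are group means, and the open diamond is the third 6-week dKO array. The 3-month dKO arrays lie below the 6-week dKO arrays in all 8 panels, and the WT arrays shift in the same direction.

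The promoters of a steeply falling oligodendrocyte gene and of a cholesterol gene are shown for contrast with those of the rising factors, in the same form and from the same table. They lie at chr8:46986637-46986886 (plus strand) for Enpp6 and chr5:4104698-4104947 (minus strand) for Cyp51.
Enpp6: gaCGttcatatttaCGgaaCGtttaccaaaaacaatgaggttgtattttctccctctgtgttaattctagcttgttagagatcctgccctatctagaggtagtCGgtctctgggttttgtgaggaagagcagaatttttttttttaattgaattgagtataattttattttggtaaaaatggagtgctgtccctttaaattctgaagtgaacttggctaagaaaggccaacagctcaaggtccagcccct
Cyp51: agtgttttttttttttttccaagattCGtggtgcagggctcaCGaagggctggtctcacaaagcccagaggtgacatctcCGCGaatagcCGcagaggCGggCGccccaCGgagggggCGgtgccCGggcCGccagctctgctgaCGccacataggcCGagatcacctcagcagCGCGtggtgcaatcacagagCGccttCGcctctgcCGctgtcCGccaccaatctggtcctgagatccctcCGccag

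The Enpp6 window held 4 CG at 38.4% G and C, and the Cyp51 window held 20 at 62.8%, a count within the range of the 4 rising factors.

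Several other falls were shared as well. Mkrn3, an imprinted gene known as a brake on puberty, gave 1.55, 1.54 and 1.22 in dKO at 6 weeks and -0.20, 0.26 and 0.06 at 3 months, and fell by 1.40 (SE 0.15, adjusted p = 2.48e-05), beside 1.12 in WT. Rab7b, a GTPase of late endosomes, fell by 1.38 in dKO and 1.41 in WT, and Thbs3, a thrombospondin, by 1.26 and 1.17. Akap5, a postsynaptic anchor of protein kinase A, fell by 1.24 and 1.10, and was not called without the first 6-week (adjusted p = 0.0675) or the first 3-month dKO array (adjusted p = 0.077). Bmf, a pro-apoptotic relative of Bcl2, fell by 1.30 on one probe set in dKO, beside 0.70 in WT, and rose by 0.54 on another, so its direction is not settled. On the list of 28 p53 target and cell-death genes, 1 gene had a probe set called higher and 2 had one called lower in dKO, against 1.72% and 1.8% of all genes.

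In 3 of the 15 largest falls the same probe set was not called in WT. Srd5a1, a steroid reductase, gave 1.81, 0.92 and 1.33 at 6 weeks and -0.01, -0.18 and 0.15 at 3 months in dKO, a fall by 1.37 (SE 0.22, adjusted p = 0.00104), and differed by -0.48 in WT (adjusted p = 0.155). Ncan, the matrix proteoglycan neurocan, gave 1.05, 1.31 and 1.16 at 6 weeks and -0.52, 0.29 and 0.25 at 3 months, a fall by 1.17 (adjusted p = 0.00583), and differed by -0.60 in WT (adjusted p = 0.0772). Without the first 3-month dKO array it was -0.90 and did not pass (adjusted p = 0.0552). Igsf1 fell by 1.18 (adjusted p = 0.0445) and was not called when any 1 of the 6 dKO arrays was left out. The difference between genotypes passed for none of these, with adjusted p of 0.682, 0.904 and 0.959.

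The neuronal lists held few calls in dKO, as lists of this size can at the share of all genes called. Of 40 medium spiny neuron genes measured, Pde7b, a phosphodiesterase of cyclic AMP, rose by 0.82 (adjusted p = 0.0275) and none fell, against 1.72% and 1.8% of all genes, with 84 of 103 probe sets positive. The count was 4 without the first 6-week and 2 without the third 3-month dKO array, and 0 without each of the others. Pde7b did not pass without the second or the third 6-week array or the first or second 3-month array of dKO, with adjusted p from 0.0533 to 0.136. The list median was 0.20 in dKO and -0.18 in WT, where Foxp2, Meis2, Ptpn5, Rgs9, Rxrg and Scn4b fell and Pde7b rose. The list median of single dKO arrays ran from -0.42 to 0.24 at 6 weeks and from -0.03 to 0.26 at 3 months, so the groups overlapped, and the second 6-week array had both the lowest median of this list and the highest of the cortical list. Drd2, a dopamine receptor that marks the indirect pathway, gave 0.06, -1.14 and -0.53 at 6 weeks and 0.10, 0.54 and -0.27 at 3 months, and did not pass (adjusted p = 0.247). Of 33 synaptic and excitability genes none was called in dKO, with Kcnd2 at 0.97 (adjusted p = 0.0569) among the nearest. In WT 10 of them rose and 2 fell, against 5.75% and 6.74% of all genes. Without the first 6-week dKO array 2 synaptic genes were called higher in dKO, and without the third 3-month array 1. None of 19 activity-induced genes was called, Btg2 being at -0.74 (adjusted p = 0.119).

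Of the astrocyte and immune lists, only the astrocyte and reactive astrocyte lists held calls in dKO. Of 14 astrocyte genes, Aldh1l1 and Fgfr3 rose by 0.35 and 0.41 and the water channel Aqp4 fell by 1.15, each with adjusted p between 0.03 and 0.0386, against 1.72% and 1.8% of all genes. Neither rise passed when any 1 of the 6 dKO arrays was left out, and the fall of Aqp4 passed only without the third 3-month array. The list median was -0.09 in dKO and 0.02 in WT. S100a10, which marks one form of astrocyte reactivity, was the only one of 13 reactive astrocyte genes called, against 1.72% of all genes called higher. It gave 0, -0.12 and -0.44 at 6 weeks and 0.82, 1.23 and 0.76 at 3 months (log2 1.12, adjusted p = 0.00546), beside 0.69 in WT. None of 15 microglial genes, 17 activated microglia and antigen presentation genes, or 24 interferon-induced genes was called in dKO. With 1.72% and 1.8% of all genes called, lists this short can hold no call. The nearest members were P2ry12 at -0.41 (adjusted p = 0.303), H2-Ab1 at 0.61 (adjusted p = 0.0535) and Psmb8 at 0.26 (adjusted p = 0.308).

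Markers of other cells and neighbouring tissue were not called in dKO either. That covers 10 meningeal, 13 choroid plexus, 9 ependymal, 15 cortical, 11 thalamic or pallidal, 14 interneuron, 11 septal and hypothalamic and 4 blood cell genes. Of all genes 1.72% were called higher and 1.8% lower, so lists this short can hold no call at that share. The smallest adjusted p among these markers were those of Ramp3 on the thalamic list, at -0.91 (adjusted p = 0.107), and Col3a1, a fibroblast collagen on the meningeal list, at -1.15 (adjusted p = 0.137). None of the 21 thalamic or pallidal probe sets had a positive difference, and their array medians were 0.17, -0.14 and 0.69 at 6 weeks and between -0.16 and -0.06 at 3 months. Their part in the other results was not tested gene by gene. With the medians of 3 tissue lists as covariates 291 probe sets were called higher and 280 lower in dKO.

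**Figure D5:**
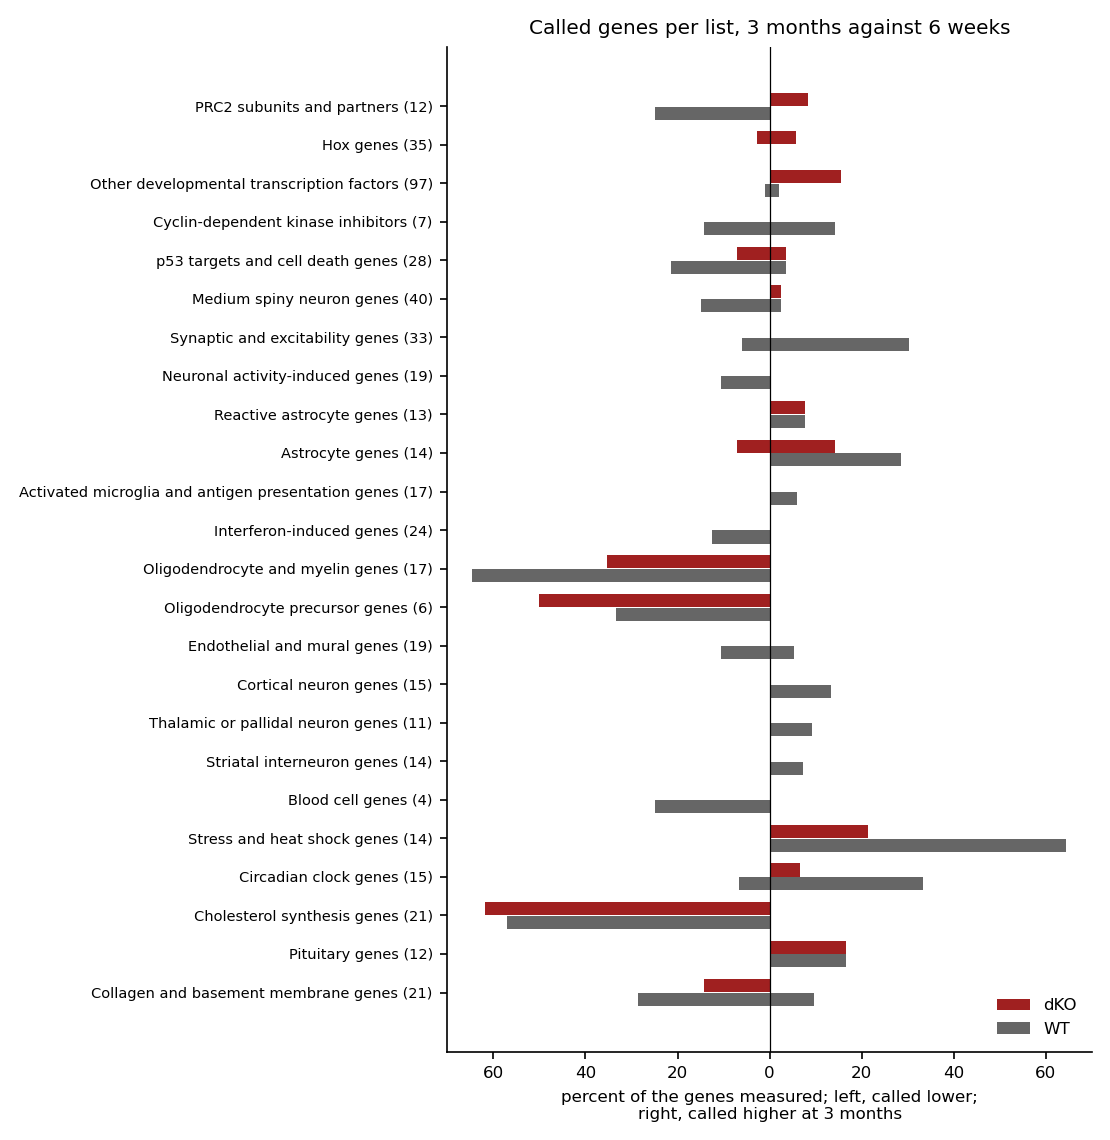
Percent of the measured genes of each list (number in brackets) with a probe set called lower (left) or higher (right) at 3 months, in dKO (red) and WT (grey). The developmental factors have a dKO bar to the right with little in WT, while the oligodendrocyte, cholesterol and stress lists have bars in the same direction in both genotypes.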

How the data were processed

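Total RNA of striatal tissue (6 ug per array) was made into biotinylated cRNA for Affymetrix arrays, as the labels' protocols state. The deposited values are log2 values from RMA, a step the authors ran and that the submitters' processing notes name without a version. In 87.95% of probe sets 1 array is at exactly 0, so each probe set was centred by an unstated rule. The array number, not a read depth, limits the precision, and the median SE of a dKO difference was 0.129. Values came from the series matrix. The authors' other table holds the same values, and there 2 columns that share a name were not used.

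Groups and replicate numbers came from the sample titles. One mean per group (6 groups, 23 arrays) was fitted with limma 3.58.1 in R 4.3.3 and default eBayes (residual df 17, prior df 4.766), and a call was an adjusted p under 0.05, two-sided. The unit tested was the probe set, and a gene counts as called when any of its probe sets was. Of 20694 genes, 18344 were found in RefSeq. When tested on simulated data, 89.6% of dKO changes of 1 (log2) were recovered, with 5 of the unchanged probe sets called among 38143, and 74.6% of interactions of that size. The simulated noise was normal, independent between probe sets and of equal spread in all arrays, and the changed probe sets were random. The real arrays differ in spread, so these shares need not hold for them. No p-value is given for a list, and list counts are read against the share of all genes called.

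The members and 27 gene lists were chosen with earlier results of these data known, and 3 further lists (cholesterol, pituitary, collagen) after values were seen. Named are all Ezh1 and Ezh2 probe sets, the 15 largest called changes each way, up to 4 called members per list (2 nearest where none was called), and the 5 largest called interactions and WT changes each way. Further called list members and genes described beside them, such as Barx1, Irx1 to Irx6 and Drd2, were picked with their values in view. Some genes that the rule names are not reported here. Alternatives covered normalization, probe set choice, filters, covariates, fits and each array left out.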

Additional observations from a re-analysis of the deposited data

Results flagged for a closer look

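In the 4 WT arrays at 3 months, the one group of the comparison large enough for this check, 93 values (named probe sets and list medians) were examined for 1 array far from the rest, and 8 (8.6%) were found, where chance gives about 1 in 20. In the first of these arrays Aplnr was -0.36 (the others -0.04 to 0.00), Zbtb16 was 0.64 (0.81 to 0.83), Bmf was 0.18 (-0.23 to -0.20), Gh was 6.58 (3.78 to 4.10) and the median of the microglia list was 0.023 (-0.18 to -0.15). In the third, Enpp6 was -0.51 (-0.17 to -0.12) and the median of the cyclin-dependent kinase inhibitors was -0.0889 (-0.0148 to 0). In the fourth, Cuedc1 was 0.44 (-0.43 to -0.37).

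The age change differed between dKO and WT for Irx5 by 1.99, for Zfp932 by 1.24, for Wdfy1 by -1.45 and for Cuedc1 by -2.44, each by limma's test of the interaction, with adjusted p of 0.012, 0.00679, 2.06e-07 and 0.000496.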

How the results depend on the processing

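The main counts were 410 higher and 468 lower in dKO, 1510 and 1667 in WT, and 2 and 2 for the difference between genotypes. Quantile normalization gave 954 and 908 in dKO and 11 higher differences. With 1 probe set per gene, by largest SD, there were 249 and 283 in dKO, 877 and 1036 in WT, and 1 lower difference. With the mean of a gene's probe sets there were 229 and 272, 698 and 1027, and 4 and 1; both test fewer features. Fitting only the arrays of the groups compared gave 1008 and 997, 2384 and 2715, and 6 lower differences, and only dKO arrays 88 and 92. Array weights gave 2895 and 2602, 4296 and 4556, and 716 and 531, with a weight of 5.32 for the third 6-week dKO array against 0.589 and 0.789 for the others of its group. A threshold of 0.01 gave 101 and 133, 589 and 662, and 1 higher difference, and a 2-fold minimum 46 and 57 in dKO and 205 and 100 in WT. Leaving out the less variable probe sets gave 5 higher differences, Xist as a covariate 4, and eBayes with trend and robust 0 (2136 at unadjusted p under 0.05 in the default fit). With 3 tissue medians as covariates there were 280 lower in dKO, 564 and 606 in WT, and 1 higher difference. With Gh as a covariate, chosen after seeing the data, there were 10 and 12 in dKO and 51 and 36 in WT. Gh separates 6 weeks from 3 months in every array of those ages, so Gh and this age step overlap in the fit. The dKO differences did not all vanish there. Plin4 stayed at 2.28 or more under every alternative but was not called with Gh (adjusted p = 0.195), while Prl turned to -0.21. Why the counts dropped was not tested.

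Replicate numbers are shared between groups by title alone. Same-numbered dKO arrays of the 2 ages had correlations of -0.149, -0.47 and 0.153 in their deviations, so they were not treated as pairs. With the number as a block the replicate block fit called 276 and 355 in dKO, 1150 and 1272 in WT, and 1 and 3 differences.

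Leaving out single arrays gave 126 to 591 higher and 163 to 655 lower in dKO, 578 to 1747 and 729 to 1935 in WT, and 1 to 13 higher and 2 to 6 lower differences. Of 1422 values of named genes under alternatives, 1149 kept their call, 259 lost it, 5 gained it and 9 changed sign. The calls of Irx5, Nkx6-1, Pou4f2, Xdh, Ccny, Aplnr, Enpp6 and Rab7b in dKO held under all 21 alternatives. The difference between genotypes for Irx5 was lost in 6 of 20, with adjusted p up to 0.242. Without single arrays the Ezh1 probe sets that changed sign ran from -0.372 to 0.42, from -0.198 to 0.064 and from -0.987 to 0.0592, each turning positive without the third 6-week dKO array and the first also without the first 3-month dKO array (0.0231). That first one was 0.221 with tissue medians and 0.174 with Gh; Cuedc1 in dKO was 0.0235 with array weights and 0.0488 with Gh, and Prl -0.21 with Gh. Of these, Prl alone had been called. The causes were not tested.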

Other observations

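Nnt, the mitochondrial transhydrogenase, was chosen after values were seen, for its small adjusted p in both genotypes. Of its 3 probe sets, one gave -0.94, -1.13 and -1.02 in dKO at 6 weeks and 0.18, 0.18 and -0.06 at 3 months. It rose by 1.13 in dKO (adjusted p = 9.7e-06) and 0.92 in WT (adjusted p = 1.95e-05). A further one rose by 0.998 in dKO (adjusted p = 0.0118) and the other differed by -0.05.

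A few further genes were also chosen after their values were seen. Rras2, a relative of the Ras oncogenes, gave 1.28, 1.40 and 1.33 at 6 weeks and 0.38, 0.28 and 0.56 at 3 months, a fall by 0.93 (adjusted p = 2.85e-05), beside 0.48 in WT. Sema6a, an axon guidance ligand, gave 1.05, 0.61 and 0.70 at 6 weeks and -0.20, -0.33 and -0.24 at 3 months, a fall by 1.04 (adjusted p = 2.85e-05), beside 0.65 in WT, while its other probe sets, at -0.09 and -0.54, were not called. Fyn, the kinase that acts in myelination, fell by 0.77 (adjusted p = 0.000136) and 0.53. Akt1, a kinase of growth signalling, rose on 2 of its 4 probe sets, by 0.75 (adjusted p = 0.000174) and 0.48 (adjusted p = 0.00955) in dKO and by 0.70 and 0.29 in WT. The difference between genotypes passed for none of Rras2, Sema6a and Fyn, with adjusted p of 0.672, 0.8 and 0.906. Fst, the activin antagonist follistatin, rose in dKO on both of its probe sets, by 1.08 and 1.03, with 1.12, 0.38 and -0.56 at 6 weeks and 1.07, 1.5 and 1.62 at 3 months on the first. Its 6-week and 3-month arrays overlapped there, and WT differed by 0.08. Without the third 6-week dKO array neither passed, at 0.65 (adjusted p = 0.191) and 0.72 (adjusted p = 0.0972).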
